A study of Mus musculus with 20 samples.

Results

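Collagen genes were followed in the aorta of irradiated and sham irradiated mice. The rule took every gene whose symbol is Col, a type number, the letter a and a chain number, and whose mean count over the 20 libraries was at least 5. It kept 32 of the 43 genes with such a symbol, out of 21078 genes in the table and 13124 tested. By the known assembly of their proteins, 8 are fibrillar (Col1a1, Col1a2, Col3a1, Col5a1, Col5a2, Col5a3, Col11a2 and Col27a1), 8 belong to basement membranes (Col4a1 to Col4a6, Col15a1 and Col18a1) and 16 are of other kinds. The 11 genes below the minimum were Col2a1, Col6a4, Col6a5, Col9a1, Col9a2, Col10a1, Col11a1, Col13a1, Col17a1, Col24a1 and Col25a1, with mean counts from 0.10 to 4.00.

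The mice were wildtype male C57BL/6 animals aged 10 to 12 weeks, irradiated over the whole body or sham irradiated, and killed 4 h later. The Proton group (high energy protons) and the Gamma group (gamma rays) each held 10 mice, 1 mouse each at 0, 5, 10, 25, 50, 75, 100, 125, 150 and 200 cGy. The mouse at 0 cGy in each group was a sham control that was put in the irradiator and received no dose. No dose had a second mouse of the same radiation type, so every p-value measures the scatter of single mice around a trend or between sets of doses. A whole vessel was measured, and fewer cells of a type cannot be told apart from less RNA per cell.

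A collagen molecule is a triple helix of chains built from a repeated triplet whose first residue is glycine. Fibrillar collagens, above all types I and III, form the load-bearing fibrils of the adventitia and media, and type V is built into the same fibrils. Type IV collagen forms the sheet under the endothelium and around each smooth muscle cell. Types XV and XVIII link such sheets to the tissue, and type VI forms beaded filaments beside them. Collagens in the vessel wall turn over slowly, so a transcript measured within hours says little of the amount of protein present.

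Every library held between 6051657 and 6058006 counts, because the authors resampled the reads to a common depth. Smooth muscle markers (Myh11, Acta2, Tagln, Cnn1, Smtn and Des) summed to between 26052 and 55512 CPM (counts scaled to a common library size with TMM factors), and none of the 6 epithelium markers reached the minimum. The Proton library at 75 cGy stood apart. Its 6 heart muscle markers, Myh6 and Nppa among them, summed to 2560 CPM against 7.42 to 44.6 in the other 19 libraries, its white fat markers to 6343 against 496 to 2425, and its smooth muscle markers to the lowest sum of all. The 4 libraries at 150 and 200 cGy also stood apart. The correlation across genes between the GC content of a transcript and its level in the library relative to the others was between -0.40 and -0.35 there and between -0.02 and 0.28 in the other 16 libraries. The highest doses and this property of the libraries cannot be told apart, and slopes are given below over all doses and over 0 to 125 cGy.

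The repeat is visible in the genes themselves. In fibrillar genes many exons have 54 bases, which is 6 codon triplets of the helix, and the middle such exon of 4 fibrillar members is shown because these genes carry the main result. Glycine codons are in capitals. The exons lie in NCBIM37 (mm9) at chr11:94805669-94805722 for exon 26 of Col1a1, chr6:4474117-4474170 for exon 27 of Col1a2, chr1:45391606-45391659 for exon 26 of Col3a1 and chr2:27854246-27854299 for exon 37 of Col5a1, all coding and on the plus strand.
Col1a1 exon: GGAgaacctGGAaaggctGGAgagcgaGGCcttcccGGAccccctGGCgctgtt
Col1a2 exon: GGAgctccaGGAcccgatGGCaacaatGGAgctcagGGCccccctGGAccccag
Col3a1 exon: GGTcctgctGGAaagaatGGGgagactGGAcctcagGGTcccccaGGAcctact
Col5a1 exon: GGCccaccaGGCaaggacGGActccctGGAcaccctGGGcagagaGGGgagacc

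In all 4 exons each triplet of codons opens with glycine, 6 times per exon, with a GC content between 61.1% and 70.4%. Over the longest annotated coding transcript, 217 of 450 whole coding exons of the fibrillar members had exactly 54 bases (48.2%), against 16 of 363 in basement membrane members (4.41%) and 104 of 655 in the other members (15.9%). The longest run of glycine triplets without a break was 217 in Col27a1 and 337 to 344 in the other 7 fibrillar members. In the 6 type IV genes it was 39 to 66, since their helices are interrupted. The members as a whole were GC rich. Their median transcript GC content was 55.9% (58.5% for fibrillar members), against 50.4% for all tested genes.

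For 3 of the 4 members whose level followed dose over both radiation types, RefSeq gives a promoter window (GRCm38.p6). The 250 bases before the start are shown, with matches on either strand in capitals, for the letters TATAAA of the TATA element, the letters CCAAT bound by factors such as NF-Y, and the letters GGGCGG of the Sp1 element. They are chr6:4505368-4505617 on the plus strand for Col1a2, chr4:130047590-130047839 on the plus strand for Col16a1 and chr1:24587438-24587687 on the minus strand for Col19a1.
Col1a2 promoter: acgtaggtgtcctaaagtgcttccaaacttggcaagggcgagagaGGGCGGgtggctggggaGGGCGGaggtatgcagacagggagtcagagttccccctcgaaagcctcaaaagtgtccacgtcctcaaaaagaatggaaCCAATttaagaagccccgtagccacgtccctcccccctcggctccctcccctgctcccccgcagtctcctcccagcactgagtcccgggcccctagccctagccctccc
Col16a1 promoter: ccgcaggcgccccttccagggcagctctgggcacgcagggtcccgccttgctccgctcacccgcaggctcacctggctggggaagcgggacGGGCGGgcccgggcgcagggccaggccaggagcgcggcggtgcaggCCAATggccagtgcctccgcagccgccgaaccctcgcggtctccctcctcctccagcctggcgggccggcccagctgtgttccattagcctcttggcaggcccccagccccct
Col19a1 promoter: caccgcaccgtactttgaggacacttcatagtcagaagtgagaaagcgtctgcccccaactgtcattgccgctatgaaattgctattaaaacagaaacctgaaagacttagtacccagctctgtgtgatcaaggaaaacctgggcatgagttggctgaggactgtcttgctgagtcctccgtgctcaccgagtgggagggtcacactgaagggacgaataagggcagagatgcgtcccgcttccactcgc

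The windows of Col1a2 and Col16a1 each held 1 CCAAT match and at least 1 GGGCGG match, and that of Col19a1 held none of the 3 letter strings. Among the 25 members with a window, GGGCGG was found in 16 (64.0%), CCAAT in 8 (32.0%) and TATAAA in 2 (8%). Over all 32851 windows the shares were 32.7%, 33.8% and 12.4%. A match is a string of letters and not a binding site.

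Transcript levels spanned a wide range. Per kilobase of the longest coding transcript, the fibrillar members were led by Col1a2 at 709 CPM per kb, Col3a1 at 577 and Col1a1 at 295, the chains of types I and III. Among basement membrane members Col18a1, the precursor of endostatin, stood at 589 CPM per kb, Col4a1 at 284 and Col4a2 at 224. The type VI chains led the others, with Col6a2 at 247, Col6a1 at 245 and Col6a3 at 70.2 CPM per kb. At the low end stood Col9a3 at 0.31 and Col22a1 at 0.12 CPM per kb. All 32 members together took between 1.63% and 3.03% of the counts of a library, and the fibrillar members between 0.69% and 1.5%.

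The level of the main collagens was lower at the 2 highest doses in both radiation types, and it showed no dose slope past the threshold below them. Over 0 to 200 cGy and both radiation types, type I collagen fell with dose. The Col1a1 slope was -0.46 ± 0.14 (log2 per 100 cGy, SE, 20 mice, edgeR adjusted p = 0.039), a fall by 27.4% per 100 cGy, and the Col1a2 slope was -0.31 ± 0.10 (adjusted p = 0.044). Col16a1, which sits on the surface of fibrils, also fell, with a slope of -0.32 ± 0.11 (adjusted p = 0.063). Col19a1, a rare collagen of basement membrane zones, rose with a slope of 0.92 ± 0.23 (adjusted p = 0.013). Without 1 mouse, the Col1a1 call was lost for the Proton or Gamma mouse at 200 cGy, the Col1a2 call for any of the 4 mice at 150 and 200 cGy, and the Col16a1 call for any of those or the Gamma mouse at 0 cGy. The Col19a1 call held without any single mouse. With a correction for GC content and length, the Col1a2 slope was -0.29 (adjusted p = 0.105) and the Col16a1 slope -0.27 (adjusted p = 0.19), both no longer called, while Col1a1 (-0.43, adjusted p = 0.097) and Col19a1 (0.90, adjusted p = 0.029) were. The Col1a1 value was close to the threshold. Corrected in this way, 3.09% of all tested genes were called downward and 4.34% upward, beside 1 of 32 members in each direction. The threshold for all edgeR tests was a Benjamini-Hochberg adjusted p of 0.1 over the 13124 genes. Without the correction, members called were thus 3 of 32 in the downward direction, where 5.77% of all tested genes were called, and 1 of 32 upward, where 11.9% were. Tested genes of like GC content were called downward more often than all tested genes. Within 1 percentage point of the GC content of Col1a1 the share was 20.9%. It was 10.7% for Col1a2 and 15.7% for Col16a1.

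**Figure D1:**
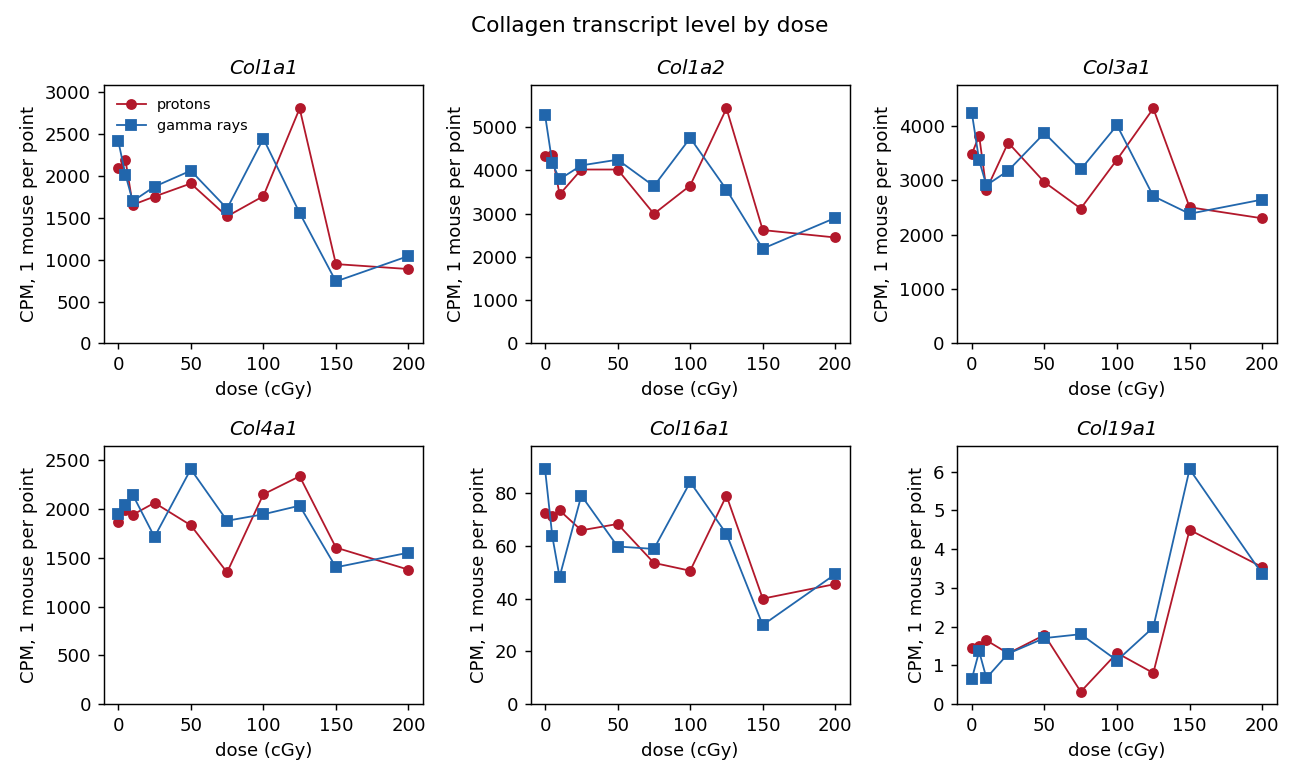
Level of 6 collagen genes (CPM, vertical axes from 0) against dose (cGy), with 1 point per mouse, circles for protons and squares for gamma rays. Col1a1 and Col1a2 lie lower in the 4 mice at 150 and 200 cGy than in any other mouse, and Col19a1 lies higher.

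Type I collagen is described first. After protons Col1a1 ranged from 888 CPM at 200 cGy to 2805 at 125 cGy, with a median of 1756. After gamma rays it ranged from 740 at 150 cGy to 2445 at 100 cGy, with a median of 1785. The 16 mice at 0 to 125 cGy held 1517 CPM or more, and the 4 mice at 150 and 200 cGy held 1044 or less, so the sets did not overlap. Col1a2 ranged from 2447 to 5425 CPM after protons (median 3830) and from 2189 to 5274 after gamma rays (median 3950). Its 4 values at 150 and 200 cGy, 2618, 2447, 2189 and 2899 CPM, were also below the lowest of the other mice, 2992 in the Proton mouse at 75 cGy. The mean of the 2 mice at 150 and 200 cGy relative to the 8 mice below was 0.47 for Col1a1 after protons and 0.46 after gamma rays. For Col1a2 these ratios were 0.63 and 0.61.

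A comparison of the 4 mice at 150 and 200 cGy with the 16 at lower doses, chosen after seeing the data, gave the size of the step. In edgeR 12 members were lower (37.5% of 32, against 11.3% of all tested genes) and 1 was higher, Col19a1 (against 16.6%). The lower members were 5 of 8 fibrillar, 4 of 8 basement membrane and 3 of 16 other genes. The medians were -0.39 for fibrillar, -0.08 for basement membrane and -0.18 for other members, on the log2 scale, against -0.02 for all tested genes. The dose range was chosen on these values, so the counts describe the step and are not independent evidence of it. The same holds for the adjusted p-values and calls of this comparison given below.

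Within the fibrillar class the steps were of unequal size. Col1a1 was lower by a log2 difference of -1.11 ± 0.15 (SE, adjusted p = 9.94e-06) and Col1a2 by -0.69 ± 0.13 (adjusted p = 0.00031). Col3a1, the type III chain, held 2502, 2299, 2383 and 2643 CPM at 150 and 200 cGy, against 2478 to 4316 (median 3369) in the other mice, a difference of -0.47 ± 0.13 (adjusted p = 0.0092). Col5a1, a type V chain that helps to set fibril diameter, held 639 to 705 CPM at 150 and 200 cGy against 547 to 988 (median 840), a difference of -0.32 ± 0.10 (adjusted p = 0.019). For both genes the only overlapping mouse below was the Proton mouse at 75 cGy. Col5a2, the partner chain of Col5a1, was not called. It held 773 to 868 CPM at 150 and 200 cGy around a median of 827 in the others, with a difference of 0.00 ± 0.11 (adjusted p = 0.997), which became -0.25 with a correction for GC content and length (adjusted p = 0.16).

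The remaining fibrillar members were low. Col5a3 held 4.55 to 11.5 CPM at 150 and 200 cGy and 7.64 to 46.9 in the other mice, a difference of -1.18 ± 0.42 (adjusted p = 0.050). The highest value was again that of the Proton mouse at 75 cGy, and the call was lost when the Proton mouse at 150 or 200 cGy or the Gamma mouse at 200 cGy was left out. Col11a2 (mean 8.64 CPM) and Col27a1 (mean 46.6 CPM) gave differences of 0.05 ± 0.20 and -0.07 ± 0.14, neither past the threshold.

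Basement membrane members split by chain. Col4a1 and Col4a2, the chains of the ordinary vascular type IV network, lie head to head on chromosome 8 with annotated ends that overlap (mm9 chr8:11198423-11312826 on the minus strand and chr8:11312805-11449287 on the plus strand). Col4a1 held 1604, 1377, 1402 and 1552 CPM at 150 and 200 cGy against 1350 to 2406 (median 1971), a difference of -0.41 ± 0.10 (adjusted p = 0.0051). Col4a2 held 984 to 1200 CPM against 1050 to 1955 (median 1518), a difference of -0.50 ± 0.11 (adjusted p = 0.0027). Except for the Proton mouse at 75 cGy, every mouse at a lower dose was above the 4 high-dose mice for both genes. The other type IV chains gave differences above 0, none past the threshold. These were 0.19 ± 0.10 for Col4a5, 0.22 ± 0.11 for Col4a6, 0.43 ± 0.24 for Col4a3 and 0.55 ± 0.27 for Col4a4. With the GC and length correction they were 0.00, 0.11, 0.11 and 0.38. Without the Gamma mouse at 150 cGy both Col4a3 and Col4a4 were called higher, without the Gamma mouse at 0 cGy Col4a4 was, and with a brown fat score as a covariate Col4a5 and Col4a6 were.

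Both multiplexins were lower. Col18a1 held 2808 to 3334 CPM at 150 and 200 cGy against 2178 to 4526 (median 4029), a difference of -0.34 ± 0.12 (adjusted p = 0.055). Col15a1 held 329 to 549 CPM against 338 to 961 (median 561), a difference of -0.48 ± 0.17 (adjusted p = 0.054), and 7 mice at lower doses were below its highest value at 150 and 200 cGy. Both calls were lost without the Proton mouse at 200 cGy or the Gamma mouse at 150 cGy.

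Of the other members, 2 of the 3 abundant type VI chains were lower. Col6a2 held 819 to 923 CPM at 150 and 200 cGy against 747 to 1543 (median 1248), a difference of -0.48 ± 0.11 (adjusted p = 0.0034), and Col6a1 held 809 to 878 against 681 to 1273 (median 1085), a difference of -0.30 ± 0.11 (adjusted p = 0.043). The Col6a1 call was lost without the Proton mouse at 200 cGy or the Gamma mouse at 150 or 200 cGy. Col6a3, the longest type VI chain, held 533 to 664 CPM against 407 to 959 (median 624), a difference of -0.08 ± 0.12 (adjusted p = 0.69). Col16a1 held 40.0, 45.5, 30.0 and 49.3 CPM at 150 and 200 cGy against 48.2 to 89.0 (median 67.1), a difference of -0.71 ± 0.15 (adjusted p = 0.0014). Only the Gamma mouse at 10 cGy lay within the range of the 4.

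Col19a1 moved the other way on small counts. It held 27, 21, 37 and 20 counts in the 4 mice at 150 and 200 cGy (4.50, 3.54, 6.07 and 3.36 CPM) and 2 to 12 counts in the other 16 (0.32 to 1.98 CPM). The sets did not overlap, and the difference was 1.73 ± 0.27 (adjusted p = 5.02e-05), or 3.32-fold. Col8a1, a short-chain collagen made by vascular cells, held 10.0 to 15.5 CPM against 8.59 to 21.1, a difference of -0.40 ± 0.21 (adjusted p = 0.20). Col28a1 held 0.51 to 2.30 CPM against 0.16 to 4.37, a difference of -0.81 ± 0.55 (adjusted p = 0.33).

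**Figure D2:**
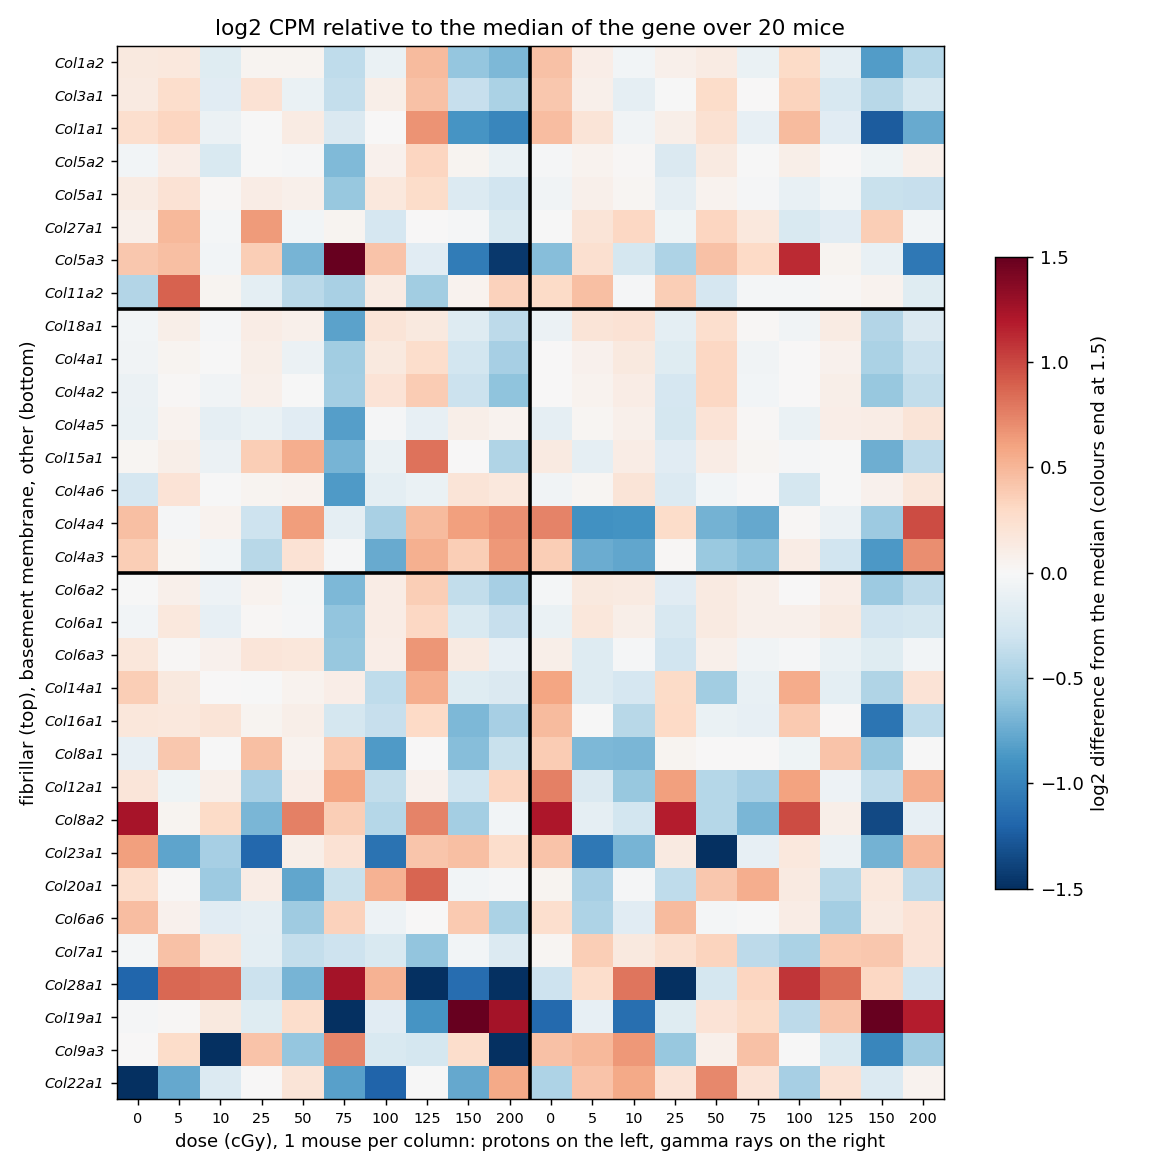
Level of each of the 32 members (rows, by class) in each mouse (columns, by dose and radiation type) as the log2 difference from the median of the gene over 20 mice, red above and blue below. Col1a1, Col1a2, Col4a1, Col4a2 and Col6a2 are below their medians at 150 and 200 cGy after both radiation types, several of them also in the Proton mouse at 75 cGy, and Col19a1 is above.

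Without any model, the 4 mice at 150 and 200 cGy lay below all 16 others for 2 members, Col1a1 and Col1a2, and above all 16 for Col19a1. Over all tested genes these shares were 2.1% and 7.24%. With both mice at 75 cGy left out, the 4 lay below the other 14 for 8 members, which were Col1a1, Col1a2, Col3a1, Col5a1, Col4a1, Col4a2, Col18a1 and Col6a2, and above for Col19a1. The shares of all tested genes were then 3.27% and 8%.

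The same comparison was run after each library was corrected for transcript GC content and length. Of 32 members 10 were then lower and 1 higher, where 7.44% and 6.97% of all tested genes were called. The difference was -1.06 for Col1a1 (adjusted p = 3.30e-05), -0.68 for Col1a2, -0.58 for Col3a1, -0.41 for Col4a1 and 1.7 for Col19a1. Col5a3, Col15a1 and Col6a1 were no longer called, and Col8a1 was (-0.61, adjusted p = 0.069). Such a correction removes what varies smoothly with GC content and length and nothing else about the libraries. Across the 32 members the common slope and the GC content of the transcript were correlated with Pearson's r of -0.43, against -0.36 over 12581 tested genes. These points share the same 20 libraries and are given as a description.

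**Figure D3:**
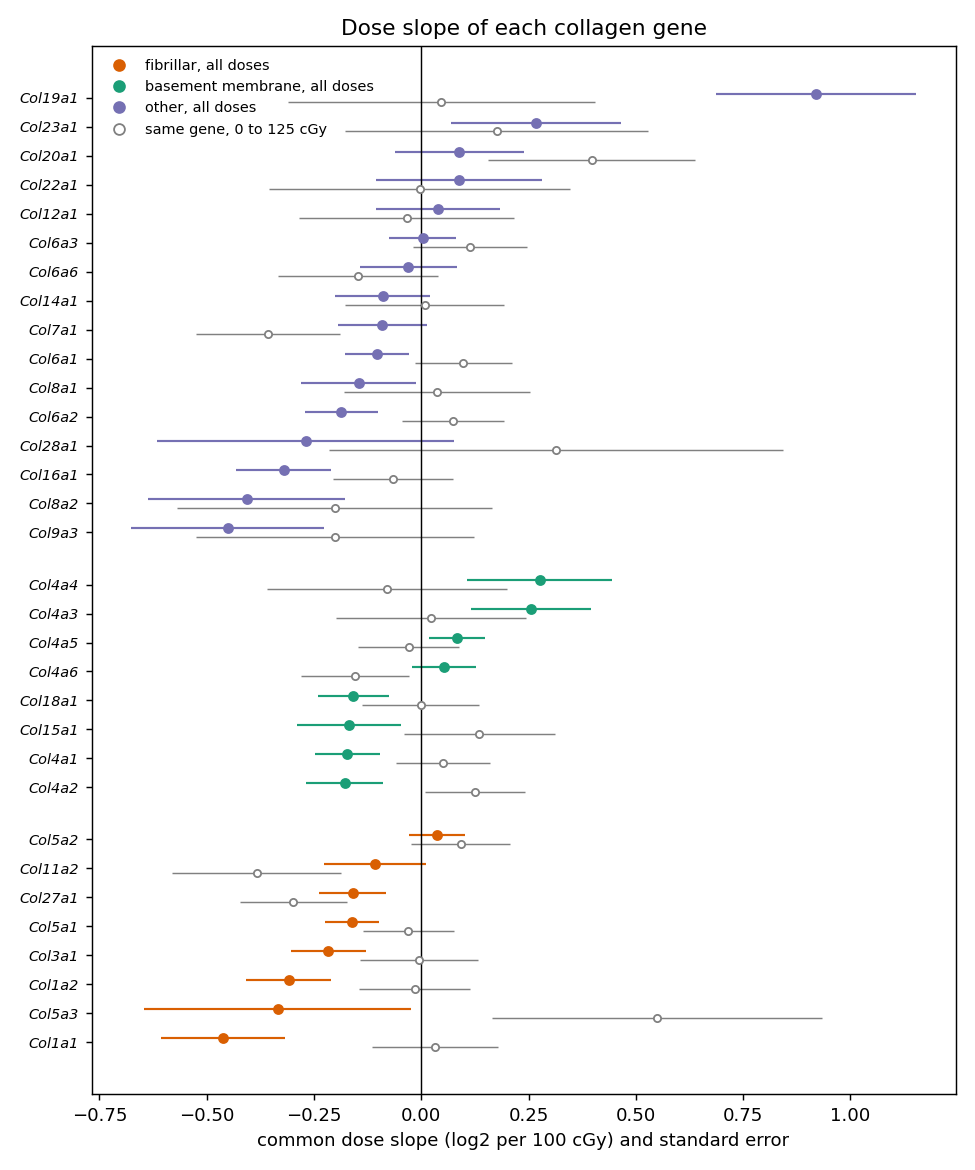
Common dose slope of each member (log2 per 100 cGy, horizontal axis) with its standard error, by class. Filled points use 20 mice at 0 to 200 cGy and open points the 16 mice at 0 to 125 cGy, where the type I and Col19a1 slopes lie near 0.

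Leaving out 150 and 200 cGy ended every slope call. Over 0 to 125 cGy none of the 32 members was called after protons, after gamma rays or over both, and the lowest adjusted p of the common slope was 0.49. Few genes of any kind were called in that range, 0.625% of all tested genes for the common slope against 17.7% over all doses. Col1a1 then had a slope of 0.03 ± 0.15, Col1a2 of -0.02 ± 0.13, Col16a1 of -0.07 ± 0.14 and Col19a1 of 0.05 ± 0.36. For Col19a1 this common slope joined -0.71 ± 0.46 after protons and 0.75 ± 0.45 after gamma rays, neither called. The fibrillar members had a median slope of 0.11 after protons, with 2 of 8 below 0, and of -0.13 after gamma rays, with 6 of 8 below 0. Their median common slope was -0.01, against -0.19 over all doses. For basement membrane members it was 0.01, against -0.05, and for the others 0.02, against -0.09. At an unadjusted p under 0.05 the common slope over all doses had counted 8 members (25%, as for all tested genes), 7 of them downward (21.9%, against 9.46% of all tested genes).

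Taken one radiation type at a time, slopes were less certain. After protons no member was called, where 1.6% of all tested genes were called upward and 0.16% downward, and the lowest adjusted p was 0.30, that of Col27a1. At an unadjusted p under 0.05 there were 2 members, or 6.25%, against 13.3% of all tested genes. After gamma rays Col19a1 rose with a slope of 1.19 ± 0.34 (adjusted p = 0.058), where 5.44% of all tested genes were called upward, and no member was called downward, where 2.21% were. The gamma slopes of Col1a1, -0.53 ± 0.21, and Col1a2, -0.36 ± 0.14, had adjusted p-values of 0.16. The Col19a1 call after gamma rays was lost without the Gamma mouse at 0, 10, 150 or 200 cGy.

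Class by class, the fibrillar members had a median slope of -0.22 after protons and -0.19 after gamma rays. In each radiation type 7 of the 8 were below 0, the exception being Col5a2 (over 0 to 125 cGy, 2 of 8 after protons and 6 of 8 after gamma rays), and the medians of all tested genes were 0.00 and 0.01. Basement membrane members had medians of -0.01 and -0.07, with the same 4 below 0 and the same 4 above 0 in both types. Other members had medians of -0.11 and -0.02, and 7 of these 16 had slopes of opposite sign in the 2 types.

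**Figure D4:**
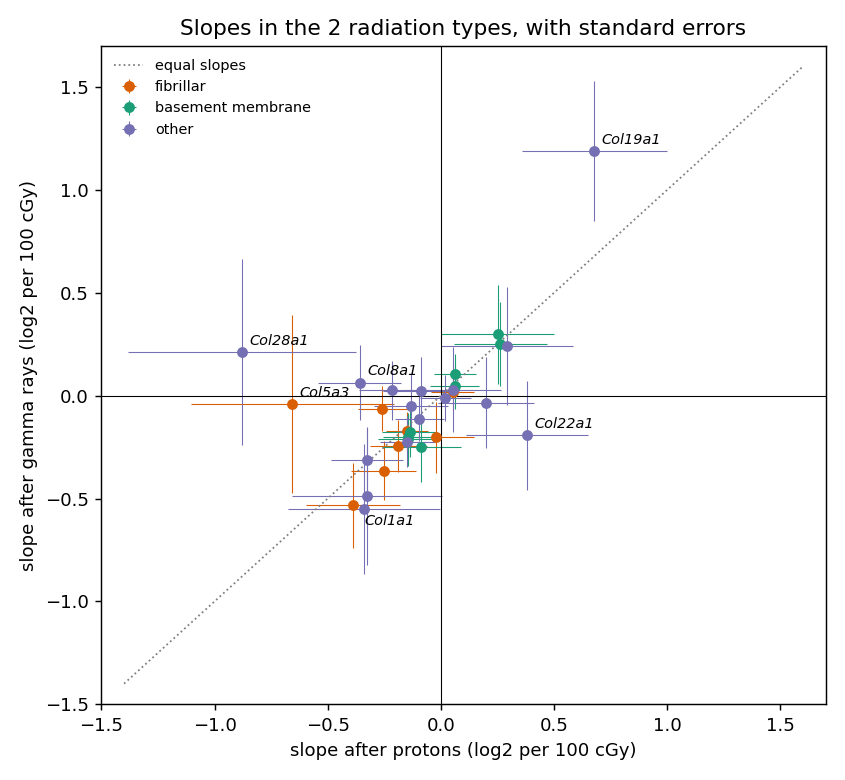
Slope after protons (horizontal axis) and after gamma rays (vertical axis) of each member, in log2 per 100 cGy with standard errors, coloured by class. Col1a1, Col1a2, Col4a1 and Col4a2 lie near the line of equal slopes, while Col28a1 and Col5a3 lie far from it with long error bars.

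Whether the radiation types differed was tested in its own right. The difference of slopes was called for no member and for 0% of all tested genes, no adjusted p among members falling below 0.99, and no member had an unadjusted p under 0.05, against 1.94% of all tested genes. The intervals remain wide. For Col1a1 the proton slope minus the gamma slope was 0.14, with an approximate 95% interval from -0.42 to 0.71, and for Col1a2 it was 0.11, from -0.28 to 0.50. For Col4a1 it was 0.06, from -0.24 to 0.36. The lowest p among members was that of Col8a1, with -0.42, from -0.92 to 0.08, and the next that of Col28a1, with -1.09, from -2.42 to 0.24.

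Protons were also compared with gamma rays at matched dose, 10 pairs of mice with dose as a block. No member was called, nor was any tested gene (0%), and the lowest adjusted p among members was 0.62. At an unadjusted p under 0.05 were 7.86% of all tested genes and 1 member, Col22a1, at -0.53 ± 0.22 (log2, proton minus gamma), a gene with 2 to 11 counts per mouse. The values for Col1a1, 0.01 ± 0.11, Col1a2, -0.05 ± 0.09, and Col3a1, -0.04 ± 0.10, were smaller in size than their steps at 150 and 200 cGy.

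A rank correlation between count and dose, tested by exact permutation, called no member in either radiation type at an adjusted p of 0.1, where it called 0.0838% of all tested genes after protons and 1.8% after gamma rays. With 10 mice it used every order of the doses, two-sided. Unadjusted, no member had an exact p under 0.05 after protons, against 6.67% of all tested genes, and 6 (18.8%) had after gamma rays, against 15.7%. These were Col1a1 (rho = -0.65, exact p = 0.049), Col1a2 (-0.71, exact p = 0.027), Col3a1 (-0.66, exact p = 0.044) and Col9a3 (-0.72, exact p = 0.023) downward, and Col4a5 (0.65, exact p = 0.049) and Col19a1 (0.82, exact p = 0.0051, adjusted p = 0.13) upward.

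Chains of several molecules varied together from mouse to mouse. Correlations were run only for 12 chosen pairs, so no share over other pairs of genes stands beside the counts. Of 12 pairs chosen because they share a molecule, a fibril, a locus or a collagen subfamily, all 12 had a Pearson correlation of log2 CPM past an adjusted p of 0.1 over the 12, and 10 a Spearman correlation. Col4a1 and Col4a2 had r = 0.99 and rho = 0.98 over 20 mice (adjusted permutation p = 2.4e-05 for each, from the smallest p that 100000 resamples can give). Leaving out the 2 mice farthest from the Col4a1 median gave r = 0.98, as did the 16 mice at 0 to 125 cGy. Col1a1 and Col1a2 had r = 0.98 and rho = 0.98 (adjusted permutation p = 2.4e-05 for each), with r = 0.96 without the 2 farthest mice and 0.95 at 0 to 125 cGy.

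The type III and V chains were tied more loosely. Col3a1 and Col5a2, neighbours on chromosome 1 on opposite strands, had r = 0.53 and rho = 0.56 (adjusted permutation p = 0.010 and 0.014), with r = 0.65 in the Proton mice and 0.31 in the Gamma mice. Col5a1 and Col5a2 had r = 0.66 and rho = 0.46 (adjusted permutation p = 0.0027 and 0.053), with r = 0.86 at 0 to 125 cGy, 0.82 in the Proton mice and 0.27 in the Gamma mice. Col6a1 correlated with Col6a2 at r = 0.96 and rho = 0.96 (adjusted permutation p = 2.4e-05 for each, r = 0.93 without the 2 farthest mice, 0.97 at 0 to 125 cGy). With Col6a3 it had r = 0.63 and rho = 0.34 (adjusted permutation p = 0.0034 and 0.16), and r = 0.42 without the 2 farthest mice. The lowest was Col8a1 with Col8a2, the 2 chains of type VIII (r = 0.39, rho = 0.31, adjusted permutation p = 0.093 and 0.19).

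Col4a3 and Col4a4, neighbours on chromosome 1 that encode chains of a type IV network best known from kidney and lung, followed each other at low levels (r = 0.95, rho = 0.93, adjusted permutation p = 2.4e-05 for each, r = 0.95 without the 2 farthest mice and 0.94 at 0 to 125 cGy). Col4a3 ranged from 12.5 to 36.5 CPM and Col4a4 from 10.6 to 39.2 CPM. Both were highest in the Gamma mouse at 200 cGy. The Gamma mouse at 150 cGy was at the low end for both, as it was for Col1a1, Col1a2, Col4a1 and Col4a2. The Gamma mouse at 0 cGy was high for both, at 29.1 and 33.4 CPM.

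The proportion between some of the paired chains was not the same at all doses. A type I molecule holds more alpha 1 than alpha 2 chains, while the transcripts are made from separate loci on chromosomes 11 and 6. Per kilobase of the longest coding transcript, the ratio of Col1a1 to Col1a2 was 0.43 ± 0.02 (SD, 16 mice) at 0 to 125 cGy, from 0.39 to 0.47, and 0.32 ± 0.01 (4 mice) at 150 and 200 cGy, from 0.305 to 0.327. The 4 ratios lay below the other 16, and the share of other gene pairs that separate in this way was not computed. The absolute value depends on the length used, and merged exons gave 0.88 and 0.66. Col5a1 to Col5a2 went from 0.80 ± 0.06 to 0.64 ± 0.04, and Col1a2 to Col3a1 from 1.26 ± 0.09 to 1.07 ± 0.08. Col4a1 to Col4a2 went from 1.26 ± 0.04 to 1.33 ± 0.03. These ratios were not tested, and the GC and length correction narrowed some of the gaps behind them. The corrected step was -0.36 for Col5a1 and -0.25 for Col5a2, and -0.68 for Col1a2 and -0.58 for Col3a1. For Col1a1 it was -1.06, against -1.11 without the correction.

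**Figure D5:**
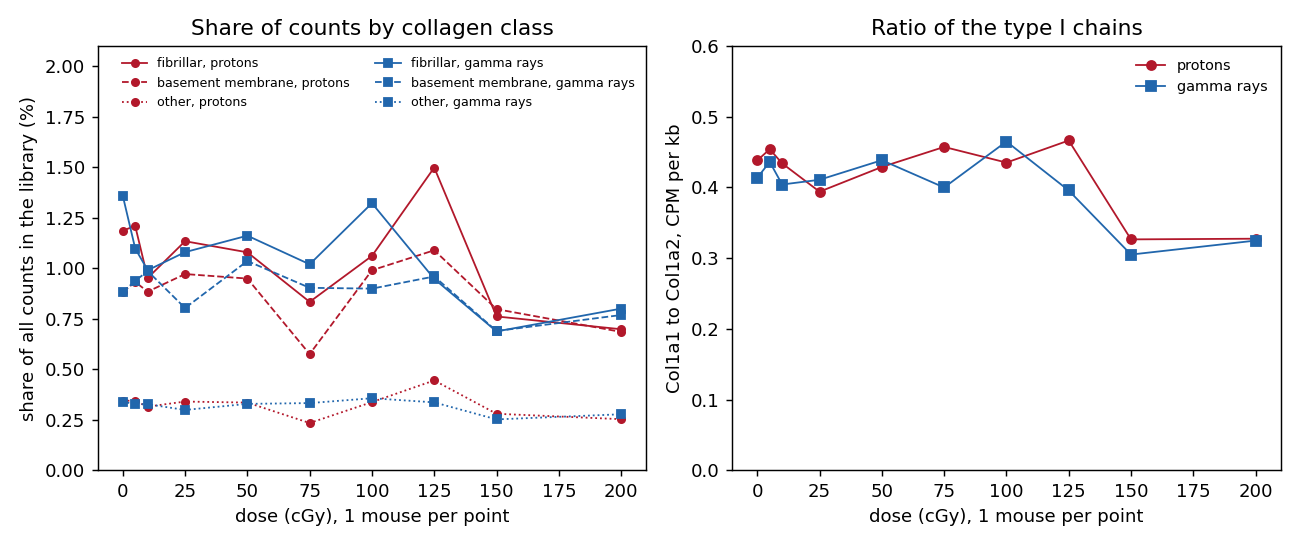
Left, share of all counts of a library (%) taken by each collagen class against dose (cGy), with 1 point per mouse and colour for radiation type. Right, ratio of Col1a1 to Col1a2 per kilobase against dose, which lies between 0.39 and 0.47 up to 125 cGy and between 0.305 and 0.327 at 150 and 200 cGy.

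The machinery that makes collagen was followed with a list of 34 genes, of which 31 were tested. Over both radiation types 5 fell with dose and none rose, where 5.77% of all tested genes were called downward and 11.9% upward. The median slope was -0.07, against 0.01 for all tested genes. Creb3l1, a transcription factor known to drive type I collagen and its secretion, had a slope of -0.42 ± 0.09 (adjusted p = 0.0034). Loxl1, a lysyl oxidase that cross-links matrix, had -0.34 ± 0.07 (adjusted p = 0.0047). Adamts2, which removes the amino-terminal propeptide of fibrillar collagen, had -0.25 ± 0.08 (adjusted p = 0.044), and Bmp1, which removes the carboxy-terminal one, had -0.15 ± 0.05 (adjusted p = 0.038). Serpinh1, the chaperone of the collagen helix, had -0.19 ± 0.07 (adjusted p = 0.080). After gamma rays alone Creb3l1, Loxl1 and Serpinh1 were called, where 2.21% of all tested genes were called downward, and after protons none. Over 0 to 125 cGy none of the 31 was called (lowest adjusted p = 0.44), the slope being -0.33 ± 0.13 for Creb3l1, -0.15 ± 0.11 for Loxl1 and -0.01 ± 0.11 for Adamts2. The step at 150 and 200 cGy was -0.70 for Creb3l1, -0.61 for Loxl1 and -0.56 for Adamts2. After the GC and length correction these steps were -0.44, -0.36 and -0.68. For Bmp1 the step went from -0.26 to -0.07 (edgeR adjusted p = 0.52 with the correction). For Serpinh1 it went from -0.23 to -0.02 (edgeR adjusted p = 0.95 with the correction). The 3 tested prolyl 4-hydroxylase genes and the 6 genes of prolyl 3-hydroxylation were not called.

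Of 10 collagen receptors 8 were tested. With dose 2 rose and 1 fell, where 11.9% of all tested genes were called upward and 5.77% downward. Itga1, the alpha subunit of a collagen-binding integrin of smooth muscle, rose with 0.26 ± 0.07 (adjusted p = 0.021), and Ddr2, a receptor kinase for fibrillar collagen, rose with 0.19 ± 0.06 (adjusted p = 0.051). Mrc2, an endocytic collagen receptor, fell with -0.29 ± 0.06 (adjusted p = 0.0025). Of 14 partners in the matrix, all tested, Tnxb, which binds fibrils, fell with -0.37 ± 0.07 (adjusted p = 0.0012) and was the one gene of these lists called after protons (slope -0.40, adjusted p = 0.057). After gamma rays alone Tnxb was called as well (-0.34, adjusted p = 0.054), as was Mrc2 (-0.30, adjusted p = 0.049), where 2.21% of all tested genes were called downward. The laminin chains went apart, Lama4 rising with 0.17 ± 0.05 (adjusted p = 0.016) and Lama5 falling with -0.21 ± 0.08 (adjusted p = 0.073). The other 11 partners, such as decorin and the nidogens, were not called. Thus 1 of the 14 partners rose and 2 fell, beside the same shares of all tested genes. Over 0 to 125 cGy no receptor or partner was called, with slopes of -0.12 ± 0.07 for both Itga1 and Ddr2, -0.19 ± 0.09 for Mrc2, 0.00 ± 0.06 for Lama4, -0.26 ± 0.14 for Lama5 and -0.10 ± 0.07 for Tnxb. The slopes of Itga1 and Ddr2 thus had the other sign there. With the GC and length correction, the step at the 2 highest doses went from 0.46 to 0.10 for Ddr2 (edgeR adjusted p = 0.39). For Lama4 it went from 0.34 to 0.13 (edgeR adjusted p = 0.19), so neither rise was past the threshold once corrected. The step of Itga1 went from 0.61 to 0.33 and that of Mrc2 from -0.47 to -0.40. For Tnxb it went from -0.69 to -0.78 and for Lama5 from -0.27 to -0.35. Each of these was past the threshold with the correction.

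Markers of the cells that make collagen were set beside these results. Fibroblast markers (Pdgfra, Dpt, Pi16, Lum, Scara5 and Cd34, all 6 tested) summed to between 541 and 1142 CPM at 150 and 200 cGy and between 675 and 1686 CPM at lower doses. None of the 6 was called in any comparison, and 6 of 6 common slopes were below 0. Smooth muscle markers summed to between 46601 and 50873 CPM at 150 and 200 cGy and between 26052 and 55512 below, and 1 of 6, Smtn, fell with dose (against 5.77% of all tested genes). At 150 and 200 cGy Smtn was lower (-0.45, adjusted p = 0.015), as was Des (-0.44, adjusted p = 0.014), and Myh11 was higher (0.38, adjusted p = 0.030). Of all tested genes 11.3% were lower there and 16.6% higher. Endothelium markers (Pecam1, Cdh5, Tie1, Kdr, Vwf and Emcn) summed to between 531 and 1246 CPM at 150 and 200 cGy and between 357 and 1174 below. None of these 6 was called, and 1 of 6 common slopes was below 0. The part of these cell types in the collagen result was not tested.

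The Proton mouse at 75 cGy touches these results from the other side. Its collagen share, 1.64% of counts, was as low as that of the Proton mouse at 200 cGy, and it was the lowest of the 16 mice at 0 to 125 cGy for 15 members (46.9%), against 22.2% of all tested genes. Without both mice at 75 cGy, the common slope was called for 9 members in place of 4, and for 21.4% of all tested genes in place of 17.7%. The 5 added were Col3a1, Col4a1, Col5a1, Col6a2 and Col18a1, all downward. Their differences between 150 and 200 cGy and the lower doses were then between -0.53 for Col6a2 and -0.37 for Col5a1.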

How the data were processed

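Gene counts from the aorta of 20 mice were analysed, 1 library per mouse. The authors sequenced polyA-selected TruSeq libraries (stranded paired-end reads of 100 bases), aligned them to mm9 with STAR 2.5.2a (the submitters' processing notes also name CASAVA 1.8.1), resampled the reads to a common depth with PORT and deposited sense gene counts. The resampling fixes the totals but not differences in library composition. Groups and doses came from the sample labels.

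The 13124 genes whose mean count reached 5 were fitted together with edgeR 4.0.16 (quasi-likelihood, TMM factors, R 4.3.3), with a dose slope for each radiation type, a common slope, their difference and a matched-dose comparison with dose as a block. A Benjamini-Hochberg adjusted p of 0.1 over all tested genes was the threshold. Rank correlation with dose was tested by exact permutation in Python 3.11.15 (scipy 1.17.1). Intervals are approximate 95% intervals from the standard error. Correlations of chain pairs used 100000 resamples. Both scripts were tested on simulated data. Alternatives were DESeq2 1.42.0, other filters, dose scales and scaling, a GC and length correction, a brown fat covariate and leaving out mice or doses. The comparison of 150 and 200 cGy with lower doses was chosen after seeing the data.

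Values are given in full for the 3 members per class with the highest level per kilobase, the 3 per class whose common slope had the lowest p, every member past the threshold in a test and the 2 whose slopes differed at the lowest p between radiation types. Other members named were chosen after their values were seen. The members, classes and gene lists were chosen with earlier results of these data known. Gene positions and lengths come from an annotation of NCBIM37 and promoter windows from RefSeq for GRCm38.p6, and coordinates of these builds were not mixed.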

Additional observations from a re-analysis of the deposited data

Results flagged for a closer look

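Within the 10 mice of a radiation type, 7 of the 64 series of a member's CPM had a highest or lowest mouse far from the rest. The criterion flags about 1 in 20 series of independent normal values. These series share the same mice, and the share over all tested genes was not computed, so no excess over chance is shown. In the Proton mouse at 75 cGy, the library with heart muscle and fat transcripts, Col5a3 was at 46.9 CPM with the nearest mouse at 16.9, Col4a5 at 415 with the nearest at 653, and Col4a6 at 253 with the nearest at 381. Col5a3 was also high in the Gamma mouse at 100 cGy, at 26.9 CPM with the nearest at 16.7. Col11a2 stood at 15.4 CPM in the Proton mouse at 5 cGy with the nearest at 10.6, and Col6a3 at 959 in the Proton mouse at 125 cGy with the nearest at 684. Col19a1 stood at 6.07 CPM in the Gamma mouse at 150 cGy with the nearest at 3.36.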

How the results depend on the processing

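The number of members with a common slope past the threshold, 4, was 0 at 0 to 125 cGy, 0 with log2(dose + 1), 2 with the GC and length correction (Col1a1 and Col19a1), 7 with DESeq2, and 9 without both mice at 75 cGy. Over all genes these fits called 82, 101, 975, 2421 and 2811, against 2324. The 1 member called after gamma rays became 0 at 0 to 125 cGy, 0 with log2(dose + 1), 0 with a mean count of at least 50 (which leaves out Col19a1) and 3 with DESeq2. At 0 to 125 cGy the Col1a1 common slope turned to 0.032 (adjusted p = 0.97 in edgeR). The causes were not tested. DESeq2 called 0 members after protons, for the slope difference and at matched dose, as edgeR did. Leaving out 1 mouse gave 1 to 10 members for the common slope (1 without the Gamma or the Proton mouse at 200 cGy, 2 without the Proton mouse at 150 cGy, 10 without the Proton mouse at 125 cGy and 9 without the Proton mouse at 75 cGy), 0 to 3 after gamma rays, 0 to 2 after protons and 9 to 15 for 150 and 200 cGy against lower doses. The slope difference and the matched-dose comparison stayed at 0 members in each of these fits. The replicate numbers of the radiation types do not overlap, so mice were paired by dose alone, and leaving out that block also gave 0 members. With 1 mouse per dose and type, 4 mice carry the high-dose result, and members under 10 counts, such as Col22a1, allow only large changes to be detected. The slope permutation used 100 orders of the doses, chosen after seeing the data.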
